A study of Mus musculus with 6 samples.

Results

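The 10 genes described here carry iron into cells, store it, export it or set the balance between these steps, and they are Tfrc, Slc11a2, Slc40a1, Fth1, Ftl1, Ireb2, Aco1, Hmox1, Hamp and Steap3. They were taken by gene symbol from the 23792 gene rows of the deposited table, and all 10 were found. RNA came from ventricles of male mice of the strain C57BL/6-FVB aged 6 to 8 weeks, and the groups were 3 HIF-PPN mice, 3 days after doxycycline was withdrawn, and 3 control mice that stayed on doxycycline. Mice of both groups carried the HIF-PPN transgene, a HIF1α that resists oxygen-dependent breakdown, and a doxycycline-silenced transactivator under the αMHC promoter, which is active in cardiomyocytes, so the transgene is driven in cardiomyocytes while the RNA was that of the whole ventricle. The groups differ in doxycycline as well as in the transgene, and no mice without the transgene were taken off doxycycline. Effects of the drug and of HIF-PPN therefore cannot be told apart in any difference below. Values are FPKM, fragments scaled to the length of the transcript and to the number of mapped fragments, and the table gives 1 merged value for each group. The spread between the 3 mice of a group is therefore not in the values, no error or p-value could be computed, and every difference below is a description of 2 merged values. The depth behind each value is unknown.

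Cells take up iron mainly as transferrin, which the transferrin receptor carries into endosomes, where the iron is reduced and moved to the cytosol. Iron that is not used is held inside ferritin, a shell of heavy and light chains, and ferroportin is the route out of the cell. The iron regulatory proteins IRP1 and IRP2 bind a stem-loop called the iron responsive element when iron is scarce. Bound to the 5′ untranslated region (UTR) of a ferritin or ferroportin mRNA they block its translation, and bound to the 3′ UTR of the transferrin receptor mRNA they protect that mRNA from decay.

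The stem-loops are shown because the iron regulatory proteins act through such elements. GENCODE transcripts of the NCBIM37 build were searched on the sense strand for the loop CAGTGN, with the 5 bases before it pairing with the 5 after it (G with T allowed) and a C just before that stem. In the 30 bases printed for each match, the C and the 6 bases of the loop are in capitals.
Tfrc loop 1: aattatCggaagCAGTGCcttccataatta
Tfrc loop 2: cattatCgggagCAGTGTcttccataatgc
Tfrc loop 3: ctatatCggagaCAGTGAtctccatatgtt
Tfrc loop 4: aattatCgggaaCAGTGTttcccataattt
Fth1: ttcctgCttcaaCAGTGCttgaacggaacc
Ftl1: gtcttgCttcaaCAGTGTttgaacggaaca
Slc40a1: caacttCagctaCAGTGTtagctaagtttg
The 4 matches in Tfrc lie in the 3′ UTR of its transcript (bases 2433 to 4890), with the loop letters starting at bases 3327, 3706, 3771 and 3818. Those of Fth1, Ftl1 and Slc40a1 lie in the 5′ UTR, with the loop letters starting at base 42 of the Fth1 transcript, base 90 of that of Ftl1 and base 114 of that of Slc40a1. The ferritin elements share 26 of 30 bases, and the Tfrc elements share from 18 to 25 of 30 with each other. Of 22611 genes searched, 33 (0.146%) had a match in a 5′ UTR and 124 (0.548%) in a 3′ UTR. The other 6 members had no match to this pattern, which says only that these letters and pairs are not in the transcripts searched. An element with an unpaired base among the 5 pairs beside its loop would be missed. Members without a match, and Tfrc beyond its 4 matches, may therefore still hold such elements.

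**Figure D1:**
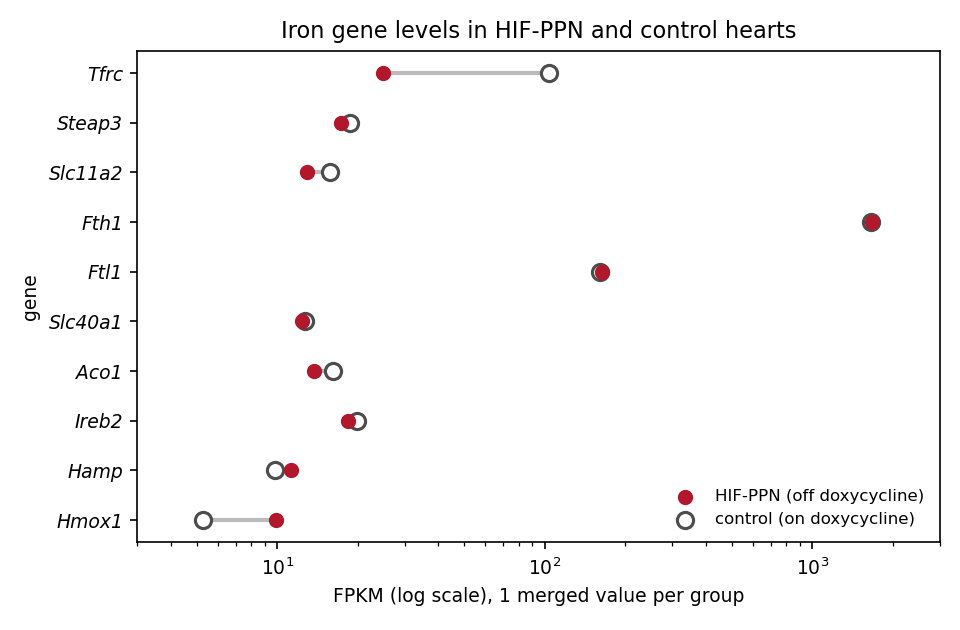
FPKM of each of the 10 iron genes on a log scale, with HIF-PPN hearts as filled points and control hearts as open circles, 1 merged value per group and therefore no error bars. The points lie far apart for Tfrc (24.8 FPKM in HIF-PPN and 104 FPKM in control hearts), apart for Hmox1 (9.86 and 5.30 FPKM), and close together for the other 8 genes.

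Among the uptake genes, the transferrin receptor gene stood alone. Tfrc (GRCm38 chromosome 16, 32608896 to 32632794) had 24.8 FPKM in HIF-PPN hearts and 104 FPKM in control hearts. The HIF-PPN level was 0.240 of the control level, a log2 fold change of −2.06. In order of level among all gene rows, Tfrc was at place 2851 in HIF-PPN hearts and place 608 in control hearts. The values of the single mice are merged, so whether the groups overlapped cannot be seen.

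Steap3 and Slc11a2 encode the next steps of the same route, and neither differed as Tfrc did. Steap3, the endosomal ferrireductase (chromosome 1, 120226416 to 120271082), was at 17.4 FPKM in HIF-PPN hearts and 18.7 FPKM in control hearts, a log2 fold change of −0.11. Slc11a2, which encodes the iron transporter DMT1 (chromosome 15, 100387900 to 100423055), was at 12.9 FPKM in HIF-PPN hearts and 15.7 FPKM in control hearts, a log2 fold change of −0.28. After Tfrc and Hmox1, this was the widest difference among the members. FPKM is scaled to length, and ratios between genes are given on that scale. Tfrc stood at 1.43 times the FPKM of Steap3 in HIF-PPN hearts and at 5.53 times in control hearts, and at 1.92 times the FPKM of Slc11a2 in HIF-PPN hearts and 6.59 times in control hearts.

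Both ferritin genes were at nearly the same level in both groups. Fth1, the heavy chain, which oxidizes iron on its way into the shell (chromosome 19, 9980600 to 9985111), was at 1668 FPKM in HIF-PPN hearts and 1657 FPKM in control hearts. Its log2 fold change was 0.0098. It was the most abundant of the 10 genes, at place 28 of all gene rows in HIF-PPN hearts and place 30 in control hearts. Ftl1, the light chain (chromosome 7, 45457944 to 45459886), was at 164 FPKM in HIF-PPN hearts and 161 FPKM in control hearts, a log2 fold change of 0.029. The heavy chain thus stood at 10.2 times the light chain in HIF-PPN hearts and 10.3 times in control hearts. Against the receptor, the same ferritin level made a different ratio, with Ftl1 at 6.61 times Tfrc in HIF-PPN hearts and 1.55 times in control hearts. Ferritin genes have processed pseudogenes that share their sequence, and the sources used here do not give how reads matching several places were counted. Gapdh, which also has such copies, was at 0.488 FPKM in HIF-PPN hearts and 0.481 FPKM in control hearts, so the absolute ferritin levels are uncertain.

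The exporter was also close between the groups. Slc40a1, which encodes ferroportin (chromosome 1, 45908070 to 45925594), was at 12.3 FPKM in HIF-PPN hearts and 12.7 FPKM in control hearts. Its log2 fold change of −0.036 turned to 0.025 when both groups were rescaled to the same sum, and that of Fth1 turned to −0.00063 when centred on the median gene, so neither has a direction. The receptor stood at 2.01 times the exporter in HIF-PPN hearts and at 8.18 times in control hearts. The 3 genes with a 5′ UTR stem-loop, Fth1, Ftl1 and Slc40a1, all had an absolute log2 fold change of at most 0.036. Of all expressed genes, meaning those with 1 FPKM or more in either group, 11.5% had one as small. The limit is the value of Slc40a1, the widest of the 3, so all 3 meet it by that choice.

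The genes of the iron regulatory proteins were slightly lower in HIF-PPN hearts, by far less than Tfrc. Aco1, which encodes IRP1, a protein that is an aconitase when it holds an iron-sulfur cluster and binds RNA when it does not (chromosome 4, 40143265 to 40199009), was at 13.7 FPKM in HIF-PPN hearts and 16.1 FPKM in control hearts. Its log2 fold change was −0.23, and 60.6% of expressed genes had a smaller absolute one. Ireb2, which encodes IRP2, a protein degraded when iron is plentiful (chromosome 9, 54863755 to 54912534), was at 18.4 FPKM in HIF-PPN hearts and 19.8 FPKM in control hearts, a log2 fold change of −0.11. Ireb2 was at 1.34 times the level of Aco1 in HIF-PPN hearts and 1.23 times in control hearts. Both proteins are controlled after translation, which these values do not measure. Tfrc was at 1.35 times the FPKM of Ireb2 in HIF-PPN hearts and at 5.22 times in control hearts.

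Hamp encodes hepcidin, the peptide that binds ferroportin and has it degraded, and it is made mainly by liver cells and to a lesser extent by heart cells. It lies on chromosome 7 from 30942369 to 30944017 and was at 11.3 FPKM in HIF-PPN hearts and 9.84 FPKM in control hearts, a log2 fold change of 0.19. The neighbouring copy Hamp2 was at 0.342 FPKM in HIF-PPN hearts and 0.209 FPKM in control hearts. Of 10 hepatocyte markers, 3 were expressed, and the list summed to 12.4 FPKM in HIF-PPN hearts and 8.92 FPKM in control hearts. The expressed ones were Ahsg (4.74 FPKM in HIF-PPN and 6.10 FPKM in control hearts), Cyp2e1 (5.70 and 1.67 FPKM) and Apoa2 (1.49 and 0.837 FPKM). Among the rest, Alb was at 0.0250 FPKM in HIF-PPN hearts and listed at 0 in control hearts, and Serpina1a, Fga and Fgb were listed at 0 in both. The part of such cells in the Hamp value was not tested.

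Hmox1 was the only member with a sizeable difference in the other direction. It encodes the inducible heme oxygenase, which frees iron from heme and is a known target of HIF1 and of NRF2 (chromosome 8, 75093618 to 75100593). It was at 9.86 FPKM in HIF-PPN hearts and 5.30 FPKM in control hearts, a ratio of 1.86 and a log2 fold change of 0.90, below the 2-fold line. At 5.30 FPKM it was the least abundant member in control hearts, and Slc40a1, Hamp, Slc11a2 and Aco1 lay within a few FPKM of its level in HIF-PPN hearts. Hmox2, the constitutive oxygenase, was at 46.7 FPKM in HIF-PPN hearts and 44.5 FPKM in control hearts (log2 fold change 0.068). Of all expressed genes with a fold change, 6302 lay above control and 5796 below it. Of 9 expressed NRF2 and BACH1 target genes, a list that also holds both regulators, 8 had values above control and none was 2-fold different, with a median log2 fold change of 0.15. They included the quinone reductase gene Nqo1 (49.6 FPKM in HIF-PPN and 44.0 FPKM in control hearts), the thioredoxin reductase gene Txnrd1 (24.3 and 21.8 FPKM), the glutathione synthesis gene Gclm (15.6 and 11.6 FPKM, log2 fold change 0.43) and Nfe2l2 itself (37.9 and 35.9 FPKM). Macrophages break down heme and export its iron, and of 11 macrophage markers 9 were lower in HIF-PPN hearts (median log2 fold change −0.16), with a summed level of 275 FPKM in HIF-PPN hearts and 319 FPKM in control hearts. Their part in the Hmox1 value was not tested.

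Counted together, 1 of the 10 members lay 2-fold or more below control and 0 lay 2-fold or more above it. Among the 12098 expressed genes with a fold change, 1.09% lay that far below and 2.11% that far above. All 10 members reached 5 FPKM in both groups, and of the genes that reached 5 FPKM in either group those shares were 0.518% below and 0.945% above. Tfrc was known to be lower when the genes were chosen, so its place in the count is a description. At 1.5-fold in either direction there were 2 members, Tfrc and Hmox1, against 9.42% of expressed genes, and Hmox1 left that count (log2 fold change 0.53) when 5 FPKM was added to both values. The members had a median log2 fold change of −0.071 and a median absolute one of 0.15, beside 0.012 and 0.18 over all expressed genes. The 8 members other than Tfrc and Hmox1 lay between −0.28 and 0.19.

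**Figure D2:**
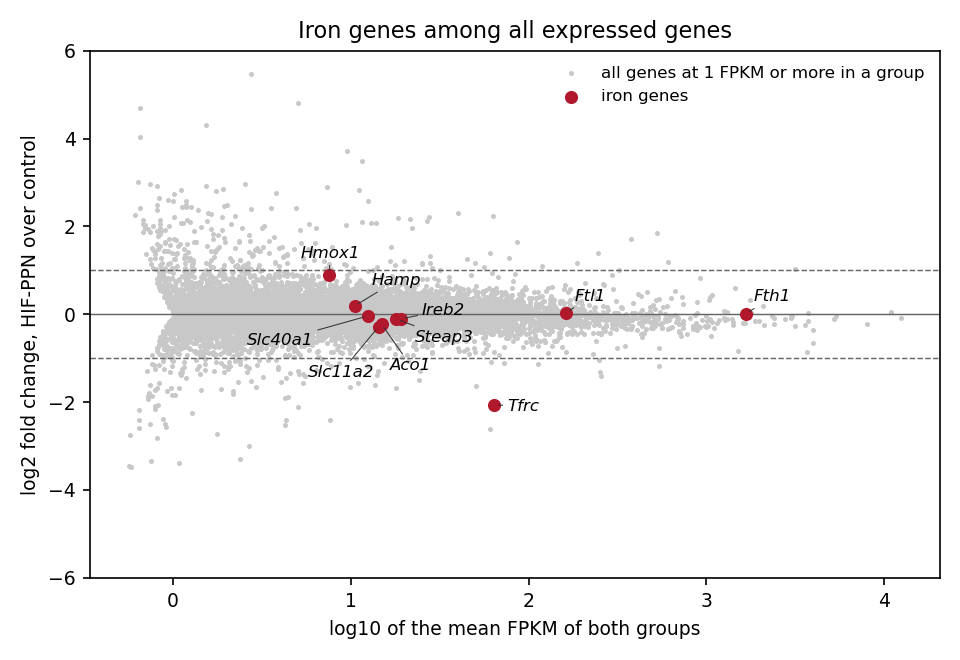
Log2 fold change of HIF-PPN over control hearts (vertical axis) by the log10 of the mean FPKM of both groups (horizontal axis), for all expressed genes (grey) and the 10 iron genes (red), each from 1 merged value per group, with dashed lines at 2-fold. Tfrc lies at −2.06, below the grey band, Hmox1 at 0.90 just under the upper line, and the other 8 iron genes within the grey band around 0.

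Over all expressed genes, 25 had a lower log2 fold change than Tfrc. Among genes that reached 5 FPKM in either group, the 5 whose log2 fold change was nearest to that of Tfrc, a likeness over 2 merged values only, were the sorting receptor gene Sorcs2 (−2.10), Gm7120 (−1.91), the formin gene Fmn1 (−1.89), Wdfy2 (−2.41) and the clock gene Arntl (−2.41). They lay between 1.37 FPKM (Arntl) and 2.42 FPKM (Wdfy2) in HIF-PPN hearts, well under Tfrc. Kcnip2, which had nearly the control level of Tfrc, had a lower log2 fold change (−2.61). Its level was 17.1 FPKM in HIF-PPN hearts and 105 FPKM in control hearts. A difference as wide as that of Tfrc was therefore not limited to genes of low level.

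Over 7 lists of other iron handling genes 64 were expressed, and none lay as far from control as Tfrc. Of these, 1 passed 2-fold above control and 0 passed 2-fold below it. Those counts are near the shares over all expressed genes, 2.11% above and 1.09% below. Of the 64, 32 were above control and 32 below it, beside 6302 above and 5796 below over all expressed genes. The split of the 64 was 37 and 27 when both groups were rescaled to the same sum, and their median log2 fold change was 0.0059. The splits of the single lists below rest on few genes each. In the uptake and carrier list, 7 of 8 expressed genes were below control (median −0.16), among them Trf, which encodes transferrin (25.4 FPKM in HIF-PPN and 27.4 FPKM in control hearts), the endocytic receptor gene Lrp1 (15.3 and 16.8 FPKM) and the metalloreductase gene Steap4 (17.5 and 27.6 FPKM, log2 fold change −0.66). Slc39a14, which encodes a carrier of iron not bound to transferrin, was at 20.7 FPKM in HIF-PPN hearts and 19.4 FPKM in control hearts. Tfr2, the second transferrin receptor gene, was at 0.133 FPKM in HIF-PPN hearts and listed at 0 in control hearts.

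Genes that act on the iron of ferritin were close between the groups. The iron chaperone genes Pcbp1 (85.8 FPKM in HIF-PPN and 82.1 FPKM in control hearts) and Pcbp2 (120 and 128 FPKM) and Ncoa4, the receptor that sends ferritin to lysosomes (5.67 and 5.84 FPKM), all had log2 fold changes between −0.093 and 0.065. Of the copper oxidases that help ferroportin, Cp (ceruloplasmin) was at 49.3 FPKM in HIF-PPN hearts and 43.8 FPKM in control hearts (log2 fold change 0.17), and Heph (hephaestin) was at 1.28 FPKM in HIF-PPN hearts and 2.01 FPKM in control hearts (−0.64). Abcg2, which encodes a transporter that can carry heme and porphyrins, was at 19.1 FPKM in HIF-PPN hearts and 16.6 FPKM in control hearts (0.20).

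Genes that sense iron or control hepcidin had no member past 2-fold, of 10 expressed (5 above and 5 below control, median log2 fold change 0.057). Hfe2, which encodes hemojuvelin, the coreceptor for bone morphogenetic proteins that muscle also makes, was at 221 FPKM in HIF-PPN hearts and 162 FPKM in control hearts (log2 fold change 0.44). Fbxl5, which has IRP2 degraded when iron is plentiful, was at 40.8 FPKM in HIF-PPN hearts and 35.9 FPKM in control hearts (0.18), and the receptor gene Bmpr1a (49.2 and 43.9 FPKM) and its target Id1 (44.5 and 39.8 FPKM) were both at 0.16. The ligand gene Bmp6, named after its value was seen, was at 10.5 FPKM in HIF-PPN hearts and 16.9 FPKM in control hearts, and its log2 fold change of −0.68 was the lowest of the 64.

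In the list of heme uptake and breakdown, 6 of 7 expressed genes were above control (median log2 fold change 0.11), and 5 of 7 when both groups were divided by their upper quartile. Hp, which encodes haptoglobin, the plasma protein that binds free hemoglobin, was at 8.52 FPKM in HIF-PPN hearts and 3.02 FPKM in control hearts, the 1 gene past 2-fold. Adipocytes also make haptoglobin, and all 9 expressed adipocyte markers were higher beside it (median log2 fold change 2.08). Over all expressed genes, 6302 lay above control and 5796 below it. Plin1 and Retn reached 1 FPKM in HIF-PPN hearts only, the group where they were higher, so this count and median rest partly on the filter. The summed level of the 10 adipocyte markers was 1385 FPKM in HIF-PPN hearts and 982 FPKM in control hearts. Most of that sum was Fabp4 (1233 and 916 FPKM, log2 fold change 0.43), so it says little of the other markers. The part of adipocytes in the haptoglobin value was not tested. The biliverdin reductase genes Blvra (15.6 and 12.3 FPKM, log2 fold change 0.35) and Blvrb (12.9 and 11.8 FPKM, 0.13) and the heme transporter gene Slc48a1 (42.9 and 42.4 FPKM) completed the most abundant of this list after Hmox2.

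**Figure D3:**
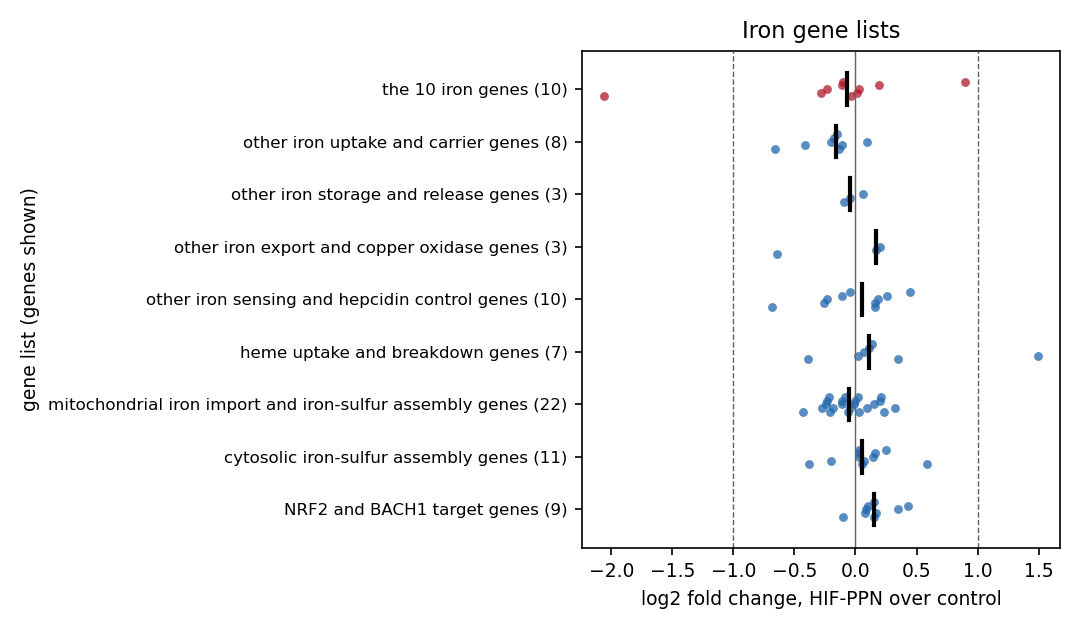
Log2 fold change of HIF-PPN over control hearts for each expressed gene (points, 1 merged value per group) in the 10 iron genes, 7 lists of other iron genes and the NRF2 and BACH1 list, with the median of each list as a black bar and dashed lines at 2-fold. Outside the 10 iron genes only Hp (8.52 FPKM in HIF-PPN and 3.02 FPKM in control hearts) passes a dashed line, and no other point lies as low as Tfrc at −2.06.

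A list of HIF target genes was read as a check on the group labels, a weak one because it was chosen with earlier results known. Of its 12 genes, 4 passed 2-fold above control (Car9, Slc16a3, Bnip3 and Higd1a) and 0 passed 2-fold below it. Over all expressed genes, 2.11% passed 2-fold above control and 1.09% below it. In the list, 9 genes lay above control and 3 below it, beside 6302 and 5796 over all expressed genes. The log2 fold changes of the list ran from −0.22 to 3.49, with a median of 0.42. Egln3 (165 FPKM in HIF-PPN and 107 FPKM in control hearts), Bnip3 (259.9 and 115 FPKM) and Vegfa (134 and 156 FPKM) had the highest means of both groups among them. Tfrc is itself known as a gene that HIF1 can activate. Of regulators that act on its promoter or on HIF, Egln1, which encodes an oxygen sensor that marks HIF1α for breakdown, was at 206 FPKM in HIF-PPN hearts and 209 FPKM in control hearts. Of the others, Hif1a was at 25.9 FPKM in HIF-PPN hearts and 35.3 FPKM in control hearts (log2 fold change −0.45), Myc at 1.48 and 0.870 FPKM (0.77), Max at 31.9 and 23.6 FPKM (0.43), and Epas1, which encodes HIF2α, at 90.6 and 97.3 FPKM (−0.10). Whether transgene reads were counted at Hif1a cannot be told from these values.

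The promoter of Tfrc is printed because a HIF core, ACGTG or GCGTG on either strand, can be read in it. In the RefSeq window of GRCm38.p6 at chr16:32608646-32608945, on the plus strand and running from 250 bases before to 50 after the start site, the cores are in capitals.
Tfrc promoter: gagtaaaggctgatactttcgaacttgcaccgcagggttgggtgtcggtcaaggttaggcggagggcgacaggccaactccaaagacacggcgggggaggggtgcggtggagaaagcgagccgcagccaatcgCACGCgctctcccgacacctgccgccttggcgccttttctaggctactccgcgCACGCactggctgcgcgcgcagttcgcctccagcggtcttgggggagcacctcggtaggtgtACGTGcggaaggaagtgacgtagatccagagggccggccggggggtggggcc
The window holds 3 cores, starting 117 and 64 bases before the start site on the antisense strand and 2 bases before it on the sense strand. At least 1 core stands in 43.8% of the 32851 mouse promoter windows of this length, and 3 or more in 8.93%. Of the 12 windows of the 7 members with an entry (Tfrc, Fth1, Ftl1, Ireb2, Aco1, Hamp and Steap3), 5 held a core, those of 4 genes, Tfrc, Fth1, Ftl1 and Steap3. Slc11a2, Slc40a1 and Hmox1 had no entry. The antioxidant element, TGACNNNGC or TGAGNNNGC on either strand, was found in a window of 2 members, Aco1 and Steap3, and in 27.8% of all windows. The core of Fth1 lay in its window 2 of 2, while its window at the start of the gene held 0, and that of Steap3 lay in window 4 of 4. Whether a core bears on the level of any of these genes was not tested. A match in these letters is not a site of binding.

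Cell markers were read beside Tfrc because ventricle RNA is a mixture, in which fewer cells of a type and less RNA per cell cannot be told apart. Of 10 cardiomyocyte markers, 0 were 2-fold different (median log2 fold change −0.083), and their summed level was 38417 FPKM in HIF-PPN hearts and 41054 FPKM in control hearts, with Myl2, Actc1 and Myl3 the most abundant. Erythroid precursors carry much transferrin receptor. The 10 matched erythroid rows summed to 1018 FPKM in HIF-PPN hearts and 1137 FPKM in control hearts, mostly globin, with 0 of 6 expressed rows 2-fold different (median −0.20). Besides the globin rows, Alas2, which encodes the erythroid enzyme that starts heme synthesis, was at 23.3 FPKM in HIF-PPN hearts and 26.4 FPKM in control hearts, Epor at 1.02 and 0.658 FPKM, and Gata1 was listed at 0 in both groups. Dividing cells also carry much of it, and 8 of 9 expressed proliferation genes passed 2-fold above control (median 1.72). Endothelial markers (0 of 8 at 2-fold, median −0.12) and fibroblast markers (0 of 8, median −0.099) were close to control. The part of any of these cells in the Tfrc value was not tested.

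**Figure D4:**
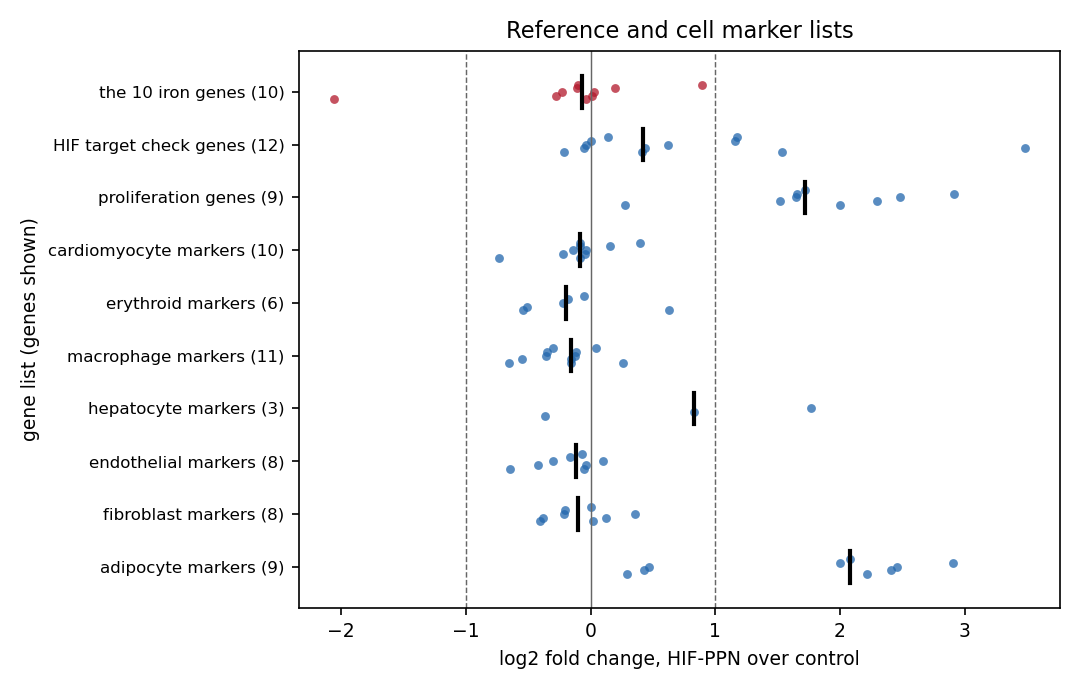
Log2 fold change of HIF-PPN over control hearts for each expressed gene (points, 1 merged value per group) in the 10 iron genes, the HIF target list, the proliferation genes and the cell marker lists, with the median of each list as a black bar and dashed lines at 2-fold. Tfrc at −2.06 lies to the left of every other point, while the proliferation genes (median 1.72) and the adipocyte markers (median 2.08) lie to the right of 0.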

How the data were processed

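Reads were trimmed, aligned by Tophat with Bowtie and turned into gene levels by Cufflinks and Cuffdiff, all by the authors, on an NCBI mouse build and in a later run on mm10. The deposited FPKM values, 1 per group with the 3 mice of a group merged by the authors, were used as they are, and gene positions were matched to GRCm38 and written 1-based. The deposited log2 fold changes are the authors' own comparison and were not used. Low values showed no shared step (the most frequent ratio of both groups held 0.432% of 1619 low genes), so reads could not be recovered and the depth per sample is unknown. Fold changes were computed as log2 of HIF-PPN over control, without a pseudocount, and a gene counted as expressed when either group reached 1 FPKM. The code was tested on simulated data. The 10 genes, the gene lists and the rule for named genes (all 10 members, the most abundant or 2-fold different genes of each list, and the genes nearest to Tfrc) were chosen with earlier results of these data known. Tfr2, Hamp2, Heph, Myc, Gapdh, Kcnip2, Alb, Serpina1a, Fga, Fgb, Ahsg, Apoa2, Cyp2e1, Alas2, Epor, Gata1 and the HIF targets past 2-fold were named in addition, after their values were seen. Rows holding several genes were used only where all their genes are in a list. Some genes of the lists are not reported here by name. A planned comparison of protein sequences was not run. Calculations used python 3.11.15, numpy 2.4.6 and pandas 2.3.3, and plots matplotlib 3.10.9.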

Additional observations from a re-analysis of the deposited data

How the results depend on the processing

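No paired analysis was possible because the 3 mice of each group are merged in 1 value, and no mouse could be left out. With no spread between replicates, a value was counted as changed when it crossed the 2-fold line or when its fold change on the linear scale moved by over 1.5 times. When 0.1, 1 or 5 FPKM was added to both values, and after centring on the median gene, rescaling to a common sum and division by the upper quartile, none of the 60 values of the single members changed in this sense. On the log2 scale, Tfrc ranged from −2.08 to −1.86 and Hmox1 from 0.53, under 1.5-fold with 5 FPKM added, to 0.96, and only Slc40a1 and Fth1 changed sign. At 1.5-fold, 1 member was higher, and of the other iron genes 3 were lower (Bmp6, Steap4 and Heph) and 2 higher (Hp and Bola2). With no filter on low values, 1 of the other iron genes was at least 2-fold lower (Bmp2) and 2 higher (Hp and Hpx), and with a pseudocount of 5 FPKM 0 were higher. Over all genes, the 132 lower and 255 higher genes became 53 and 118 with a pseudocount of 1 FPKM, 16 and 34 with 5 FPKM, 69 and 117 with 1 FPKM in both groups, and 587 and 823 with no filter. How far the mice of a group differ limits every value here.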

Other observations

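Mitochondria use iron for heme and for iron-sulfur clusters, and the genes that build these clusters were close to control. Of 22 expressed genes of mitochondrial iron import and cluster assembly, 0 were at least 2-fold different, 14 were below and 8 above control (11 and 11 when both groups were rescaled to the same sum), and the median log2 fold change was −0.054. Abundant genes of the list included the chaperone gene Hspa9 (272 FPKM in HIF-PPN and 317 FPKM in control hearts, log2 fold change −0.22), Cisd1, which encodes an outer membrane iron-sulfur protein (195 and 230.2 FPKM, −0.24), and the assembly factor gene Bola3 (162 and 187 FPKM, −0.21). The mitochondrial iron importer genes Slc25a37 (9.38 FPKM in HIF-PPN and 9.22 FPKM in control hearts) and Slc25a28 (17.7 and 17.8 FPKM) were close. Slc25a37 and Slc25a28 were chosen after their values were seen. Of 11 genes of cytosolic cluster assembly, 9 were above control (median log2 fold change 0.057) and 0 were at least 2-fold different, with Fam96a at 48.0 and 46.1 FPKM, Fam96b at 37.2 and 33.6 FPKM, and Bola2 at 45.0 FPKM in HIF-PPN hearts and 30.0 FPKM in control hearts (log2 fold change 0.59). Over all expressed genes, 1.09% were at least 2-fold lower and 2.11% at least 2-fold higher, and 6302 lay above and 5796 below control. All of these are 1 merged value per group, with no error and no test.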
